A study of Mus musculus with 6 samples.

Results

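The simple epithelial keratins Krt7, Krt8, Krt18 and Krt19 were examined in total RNA profiles of mouse embryonic stem cells (mESC) with an intact or a gene-trapped allele of Srrm2, the gene of a speckle protein that acts in splicing. They are 4 of the 42450 genes listed in the deposited table, and all 4 passed the filter on low counts that 18905 genes passed. The 4 genes were picked by name with their values in this same contrast known, so their levels and fold changes are given as a description, without a test, and nothing else is supported with them.

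The wild-type (WT) cells were the line E14tg2a.4. The Srrm2+/- cells were CG0630, a line derived from E14tg2a.4 by a gene-trap cassette that truncates 1 allele of Srrm2. Each group had 3 libraries, and both lines were kept on gelatin in GMEM with leukemia inhibitory factor (LIF) and moved to serum-free ESGRO medium with LIF before collection. The methods of the study state that the replicates are 3 separately frozen batches of each line, thawed for the experiment. Srrm2+/- is a single gene-trap line, and WT was frozen at later passages, so genotype, clone and passage cannot be told apart. P-values measure only the spread between these batches.

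The libraries held 54151532 to 69933465 estimated counts. No pair of replicates agreed within sampling noise, with a chi-square of at least 14.7 per degree of freedom. Srrm2 (ENSMUSG00000039218) was measured at 91.2, 98.3 and 97.7 CPM in WT and at 62.3, 56.2 and 59.6 CPM in Srrm2+/-. All 3 Srrm2+/- libraries lay below all 3 WT libraries, with a log2 fold change of -0.69 ± 0.05 (SE) and an adjusted p of 2.38e-05 (edgeR quasi-likelihood test, Benjamini-Hochberg over all genes tested). CPM, counts scaled to a common library total, are on TMM-scaled library sizes here, and fold changes are Srrm2+/- over WT throughout. The labelled cell type was checked with 12 markers of pluripotent cells, which summed to 5819 to 6014 CPM in WT and 4907 to 5043 CPM in Srrm2+/-. Of these 12 genes, 9 fell and 1 rose, against 11.7% and 13.6% of all genes tested. The median log2 fold change was -0.35. The largest falls were those of Tfcp2l1 (-0.84, adjusted p = 3.49e-06), Klf4 (-0.82, adjusted p = 0.000126), Nanog (-0.72, adjusted p = 8.6e-06) and Klf2 (-0.47, adjusted p = 0.00762), and Utf1 rose (0.52, adjusted p = 0.000215). Pou5f1, a core pluripotency factor, had 847 CPM in WT against 824 CPM in Srrm2+/- and was not called (adjusted p = 0.485).

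Keratins are the intermediate filament proteins of epithelial cells. A keratin filament is built from pairs of a type I chain, such as Krt18 or Krt19, and a type II chain, such as Krt7 or Krt8, and a chain without a partner is usually degraded. Krt8 and Krt18 are the first keratins made in the mouse embryo, where they mark the trophectoderm, and with Krt7 and Krt19 they form the filaments of simple, single-layered epithelia. Keratin filaments are tied to desmosomes and hemidesmosomes by linker proteins of the plakin and armadillo families.

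Krt8 (ENSMUSG00000049382, GRCm38 chr15:101996698-102004482, minus strand), the main type II keratin of simple epithelia, had 537, 475 and 445 estimated counts in the WT libraries and 8947, 9075 and 7194 in the Srrm2+/- libraries. On the CPM scale these were 9.68, 8.22 and 8.31 in WT and 129.3, 131.6 and 116.6 in Srrm2+/-. All 3 Srrm2+/- libraries were far above all 3 WT libraries, and the groups did not overlap. The means were 8.73 ± 0.818 CPM (SD, n = 3) and 125.8 ± 8.08 CPM (SD, n = 3), a log2 fold change of 3.85 ± 0.08 (SE), or 14.4-fold.

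Krt18 (ENSMUSG00000023043, GRCm38 chr15:102028180-102032027, plus strand), the type I partner of Krt8, had 574, 492 and 470 estimated counts in WT and 9330, 8723 and 7427 in Srrm2+/-. Its levels were 10.34, 8.51 and 8.78 CPM in WT and 134.8, 126.5 and 120.4 CPM in Srrm2+/-. As for Krt8, every Srrm2+/- library lay far above every WT library. The log2 fold change was 3.79 ± 0.08 (SE), or 13.8-fold, from 9.21 ± 0.991 to 127.2 ± 7.25 CPM (SD, n = 3 each). Among the 18905 genes tested, Krt8 ranked 33rd and Krt18 ranked 38th by log2 fold change.

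Krt19 (ENSMUSG00000020911, GRCm38 chr11:100140810-100148665, minus strand), a short type I keratin of simple and ductal epithelia, had 84, 82 and 99 estimated counts in WT and 1753, 1542 and 1355 in Srrm2+/-. In CPM it was at 1.51, 1.42 and 1.85 in WT and at 25.3, 22.4 and 22.0 in Srrm2+/-. It lies on another chromosome than the other 3 genes, and its groups did not overlap. The log2 fold change of 3.87 ± 0.11 (SE), or 14.6-fold, ranked 32nd.

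Krt7 (ENSMUSG00000023039, GRCm38 chr15:101411043-101430313, plus strand), a type II keratin of ducts and other simple epithelia, had 167, 163 and 140 estimated counts in WT and 489, 555 and 405 in Srrm2+/-. Its levels were 3.01, 2.82 and 2.61 CPM in WT and 7.07, 8.05 and 6.56 CPM in Srrm2+/-. The groups did not overlap, and the log2 fold change was 1.36 ± 0.12 (SE), or 2.57-fold, which ranked 595th. The log2 difference of Krt7 was the smallest of the 4. All 4 genes had every Srrm2+/- library above every WT library, as 21.4% of all genes tested had. In bulk samples, more cells that express a gene and more RNA per cell cannot be told apart.

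**Figure D1:**
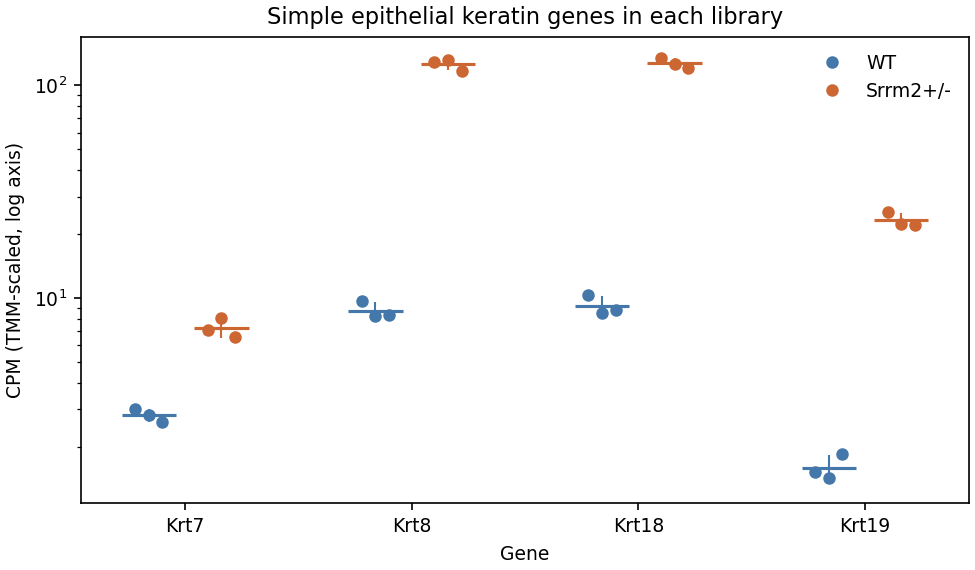
Level of each simple epithelial keratin in CPM (log axis) in the 3 WT and 3 Srrm2+/- libraries, 1 point per library, with horizontal lines at the group means and vertical bars of 1 SD to either side. Krt8, Krt18 and Krt19 differed by 13.8-fold to 14.6-fold between the groups and Krt7 by 2.57-fold, with no overlap.

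Sequence around the RefSeq start is shown for these genes. The reason is that Krt8 and Krt18 are neighbours that point away from each other and had nearly the same fold change. The GENCODE starts of Krt8 and Krt18 lie 23.7 kb apart with 0 genes wholly between them, and Krt7 lies 566.4 kb from Krt8. The windows run from 250 bases before to 20 bases after the RefSeq start on GRCm38.p6, 5′ to 3′ on the strand of the gene, and capitals mark TATAA on the sense strand and GGGCGG on either strand. Krt7 is at chr15:101412153-101412422 on the plus strand, Krt8 at chr15:102004323-102004592 on the minus strand and Krt18 at chr15:102027966-102028235 on the plus strand. Krt19 had no entry among the windows used. By the GENCODE positions given above for each gene, the Krt7 window lies wholly inside the gene. The Krt8 and Krt18 windows lie partly inside theirs. RefSeq and GENCODE starts thus differ, and the windows are not purely upstream sequence.
Krt7: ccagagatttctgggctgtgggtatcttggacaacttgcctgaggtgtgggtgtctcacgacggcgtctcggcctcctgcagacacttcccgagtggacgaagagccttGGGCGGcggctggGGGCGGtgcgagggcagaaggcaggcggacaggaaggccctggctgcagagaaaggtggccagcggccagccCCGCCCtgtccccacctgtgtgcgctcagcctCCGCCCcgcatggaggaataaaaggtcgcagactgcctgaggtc
Krt8: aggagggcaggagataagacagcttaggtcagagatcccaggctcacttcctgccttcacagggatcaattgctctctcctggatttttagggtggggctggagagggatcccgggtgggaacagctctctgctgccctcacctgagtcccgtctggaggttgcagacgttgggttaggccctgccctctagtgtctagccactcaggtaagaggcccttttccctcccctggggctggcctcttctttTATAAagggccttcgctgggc
Krt18: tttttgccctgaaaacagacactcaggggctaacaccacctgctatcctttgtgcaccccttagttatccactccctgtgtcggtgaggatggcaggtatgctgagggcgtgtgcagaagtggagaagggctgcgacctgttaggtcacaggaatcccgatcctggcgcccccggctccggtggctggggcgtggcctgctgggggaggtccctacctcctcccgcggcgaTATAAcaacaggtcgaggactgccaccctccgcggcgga

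TATAA, the core of the TATA box, stood at -19 to -15 from the RefSeq start in the Krt18 window and at -1 to 4 in the Krt8 window. It had 0 matches in the Krt7 window and was found in 16.7% of all 32851 windows. GGGCGG, the GC box that Sp1 family factors bind, had 4 matches in the Krt7 window, 0 in that of Krt8 and 0 in that of Krt18, and 34.1% of all windows held it. The Krt7 window thus differed from those of Krt8 and Krt18 in its exact matches to both motifs. Near matches, such as AATAAAA in the Krt7 window, were not counted. The TATAA of the Krt8 window spans the RefSeq start.

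Other motifs were searched on both strands. CACCC, bound by Kruppel-like factors, had 1 match for Krt7, 2 for Krt8 and 2 for Krt18, and 54.3% of all windows held it. GGAAGT, the ETS core, had 1 match for Krt7, 1 for Krt8 and 0 for Krt18 (21.7% of all windows). GCCNNNGGC, an AP-2 site, had 2, 0 and 1 matches in the same order (14.8% of all windows). The AP-1 site TGANTCA (7.2% of all windows), the TEAD site GGAATG (13.5%), the Grainyhead site AACCNGTT (1.9%) and the SRF CArG box (1.5%) had 0 matches in the 3 windows. A GCCNNNGGC match for Krt7 overlaps its first GGGCGG, and no other pair of matches overlaps. A match or its absence describes these letters only.

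Levels of different genes were compared per kilobase of the longest annotated transcript. In WT the order was Krt18 at 6.41 ± 0.689, Krt8 at 4.46 ± 0.418, Krt19 at 1.01 ± 0.143 and Krt7 at 0.687 ± 0.0483 CPM per kb (SD, n = 3). In Srrm2+/- it was Krt18 at 88.5 ± 5.05, Krt8 at 64.3 ± 4.12, Krt19 at 14.7 ± 1.17 and Krt7 at 1.77 ± 0.184 CPM per kb (SD, n = 3). The order was the same in both groups, and no 2 neighbours in it overlapped in any library of a group. The place of Krt7 depends on its length, since it has 5 annotated transcripts and the longest has 4094 bases. With its shortest protein-coding transcript of 642 bases, a length chosen after seeing the data, Krt7 was at 4.38 CPM per kb in WT, within the range of Krt8, and at 11.3 CPM per kb in Srrm2+/-, still below Krt19.

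The balance of type II to type I chains was followed as the ratio of Krt7 plus Krt8 to Krt18 plus Krt19, in CPM per kb. It was 0.696, 0.716 and 0.671 in WT and 0.617, 0.677 and 0.626 in Srrm2+/-, so the groups overlapped. With the shortest coding transcript of Krt7 the mean ratio was 1.19 in WT and 0.732 in Srrm2+/-, and the groups no longer overlapped. The ratio of Krt8 to Krt18, which has no such ambiguity of length, was 0.687, 0.709 and 0.695 in WT and 0.704, 0.764 and 0.711 in Srrm2+/-. These 2 genes thus kept a ratio between 0.687 and 0.764 in all 6 libraries while their levels differed by 14.4-fold and 13.8-fold between the groups.

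Reads can be divided among near-identical sequences. Of the 31-base words in Krt8 transcripts, 36.05% occur in transcripts of other genes, 32.21% in the pseudogene Krt8-ps alone. For Krt18 the share was 11.37%, most of it in the pseudogene Gm5200, for Krt7 it was 3.03% and for Krt19 0.44%. No values for Krt8-ps and Gm5200 were used here, and how the shared reads were divided is not known.

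The 53 keratin genes listed, summed in CPM per kb, had a mean of 26.6 ± 1.48 (SD, n = 3) in WT and of 178.1 ± 9.93 (SD, n = 3) in Srrm2+/-, a ratio of 6.70, in which the 4 chosen genes are included. Krt18 made up 24.1% ± 1.22 of this keratin pool in WT and 49.7% ± 0.932 in Srrm2+/-. Krt8 went from 16.7% ± 0.622 to 36.1% ± 0.929 and Krt19 from 3.81% ± 0.621 to 8.27% ± 0.398. Krt7, although higher in CPM, went from 2.58% ± 0.114 to 0.991% ± 0.0844 of the pool. With its shortest coding transcript, a length chosen after seeing the data, Krt7 was 14.5% ± 0.562 and 5.997% ± 0.484. The 4 simple epithelial keratins together were 47.2% of the pool in WT and 95.05% in Srrm2+/-. In WT most of the rest was Krt17 and Krt42, at 46.1% ± 1.12 together, which were 3.93% ± 0.221 in Srrm2+/-. With the short Krt7 the 4 keratins were 53.6% and 95.3% of the pool, and the keratin sums had a ratio of 6.19.

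**Figure D2:**
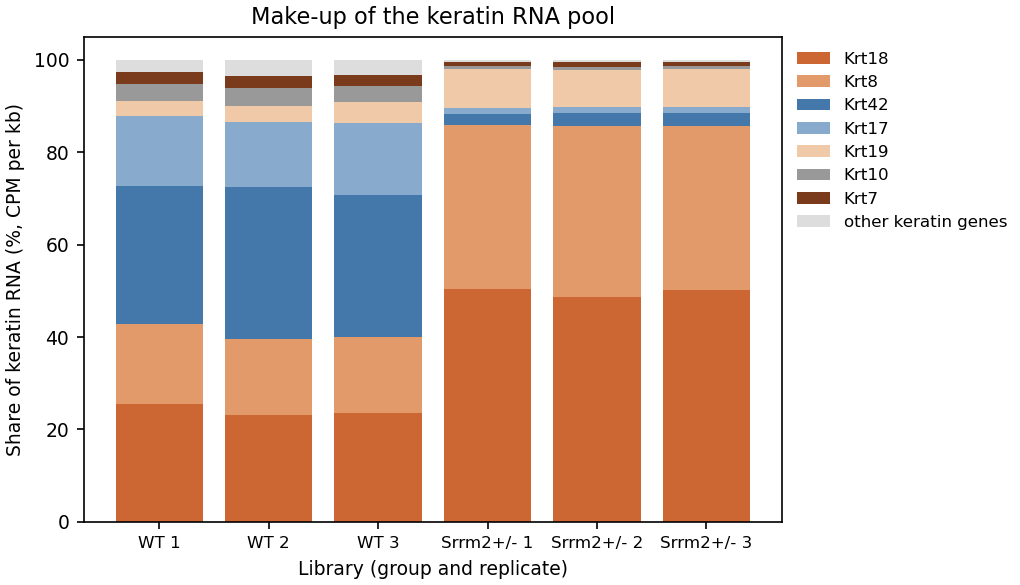
Share of each keratin in the summed keratin level (percent of CPM per kb over 53 keratin genes) for each of the 6 libraries, as stacked bars. Krt8 and Krt18 together made up 39.5% to 42.9% of the pool in the WT libraries and 85.8% in each Srrm2+/- library.

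The other keratin genes were mostly silent or low. Of 49 listed, 21 were at 0 in all libraries and 6 passed the filter, and of those 6, 0 were called higher and 2 lower, with a median log2 fold change of -0.02. Over all genes tested, 13.6% were called higher and 11.7% lower, 25.3% in all, and the median was -0.0025. Krt42, a type I keratin gene beside Krt17, fell from 13.03, 12.99 and 12.34 CPM in WT to 7.40, 7.57 and 6.78 CPM in Srrm2+/-, a log2 fold change of -0.82 ± 0.07 (SE, adjusted p = 8.82e-05). Krt17, a type I keratin of skin appendages and basal cells, fell from 6.60, 5.61 and 6.27 to 3.21, 3.93 and 3.53 CPM (-0.79 ± 0.12, adjusted p = 0.0015). For both, all 3 Srrm2+/- libraries lay below all 3 WT libraries. Krt17 shares 15.84% of its words with other genes, most with Krt14, and without keratins over 10% the count of lower calls was 1, a limit chosen after seeing the data.

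The other 4 keratins tested were not called. Krt10, the type I keratin of upper epidermal layers, had a log2 fold change of 0.12 (adjusted p = 0.663), and Krt222 of -0.16 (adjusted p = 0.645). Krt16 and Krt26, both under 0.3 CPM on average, had 0.30 (adjusted p = 0.704) and 0.23 (adjusted p = 0.739). Without Srrm2+/- replicate 1 the value of Krt26 was -0.12. Krt5 and Krt14, the pair of basal stratified epithelium, had at most 2 and 15 counts in any library and were not tested. Krt20, a type I keratin of gut epithelium that is named because of its values, had 0 counts in all WT libraries and 10, 18 and 4 in Srrm2+/-, too few to pass the filter. With a filter of at least 1 count, 28 other keratins were tested and Krt20 was called higher (adjusted p = 0.00952), which gave 1 higher and 2 lower.

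Vim, the filament protein of mesenchymal cells and of cultured cells in general, gives a scale for the keratin pool. It was at 29.7 ± 2.93 CPM per kb in WT, near the keratin sum of 26.6, and at 38.6 ± 2.46 in Srrm2+/- (SD, n = 3), against the keratin sum of 178.1. Of 16 other intermediate filament genes, 15 were tested, and 6 rose and 2 fell, against 13.6% and 11.7% of all genes tested. The median log2 fold change was 0.34. Nes, the nestin filament protein of progenitor cells, rose from 14.3, 11.2 and 13.95 to 87.9, 78.4 and 84.6 CPM (2.67 ± 0.09, adjusted p = 4.21e-07), the largest change on the list. Synm (0.82 ± 0.18, adjusted p = 0.00939), Lmna of the nuclear lamina (0.43 ± 0.07, adjusted p = 0.00158) and Vim (0.38 ± 0.07, adjusted p = 0.00534) rose less.

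Of the 2 falls on that list, Nefl and Ina, neurofilament genes, had log2 fold changes of -0.21 (adjusted p = 0.0212) and -0.21 (adjusted p = 0.0246). The call of Nefl was lost without WT replicate 1, WT replicate 2 or Srrm2+/- replicate 1 (adjusted p of 0.0609, 0.0643 and 0.0521). That of Ina was lost in 5 of the 6 fits that left out a library, all but that without WT replicate 1, with adjusted p of 0.0506 to 0.0877. Without WT replicate 2, and likewise without Srrm2+/- replicate 1, the list had 5 calls in place of 8. Lmnb1 (0.13, adjusted p = 0.0513) and Lmnb2 (-0.08, adjusted p = 0.297), the B-type lamins, were not called.

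**Figure D3:**
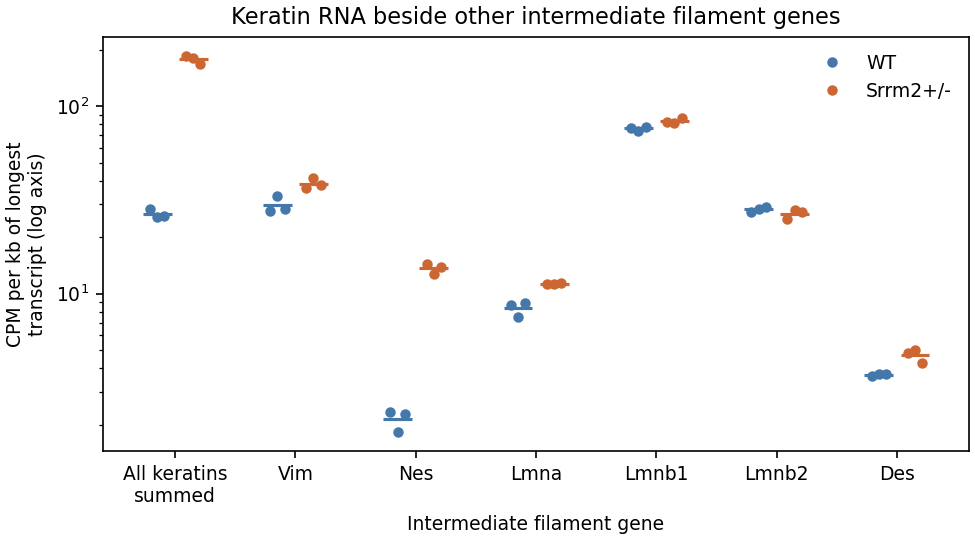
Level in CPM per kb (log axis) of the summed keratin genes and of other intermediate filament genes in each library, by group, with lines at the means. The keratin sum was 26.6 in WT and 178.1 in Srrm2+/-, and Vim was 29.7 and 38.6.

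Linker proteins tie keratin filaments to the cell surface. Of 22 keratin anchors and crosslinkers on the list, 21 were matched and 17 were tested. Of these 17, 9 rose and 0 fell, against 13.6% and 11.7% of all genes tested, with a median log2 fold change of 0.28. Dsc2, a desmosomal cadherin, rose from 1.66, 1.25 and 1.51 to 7.12, 7.09 and 6.47 CPM (2.23 ± 0.14, adjusted p = 8.46e-06). Dsp, the plakin that joins keratins to desmosomes, rose from between 13.9 and 15.6 CPM in the WT libraries to 36.2, 36.9 and 34.3 CPM (1.30 ± 0.06, adjusted p = 2.29e-06). In both genes the groups did not overlap. The unmatched entry is epiplakin, a keratin linker, whose symbol on the list is not that of the mouse gene Eppk1, and it was not analysed here.

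Ppl, another plakin, rose by 1.38 ± 0.14 (adjusted p = 0.000145) and Perp, a desmosome-associated membrane protein, by 1.22 ± 0.07 (adjusted p = 7.13e-06). Dst, a plakin with several isoforms, had 538 CPM in WT against 499.8 CPM in Srrm2+/- and was not called (-0.11, adjusted p = 0.155). Without WT replicate 1 the list had 8 higher and 1 lower. Under a limit of 1 on the size of the log2 fold change, a limit that the 4 named rises pass, 4 of 17 were called. Over all genes tested that limit left 1153 of 18905 called.

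Of 6 keratin-binding proteins tested, 3 rose and 0 fell, against 13.6% and 11.7% of all genes tested, with a median log2 fold change of 0.14. Sfn, 14-3-3 sigma, which binds phosphorylated keratin, rose from 20.4, 17.0 and 19.2 to 71.2, 61.8 and 68.8 CPM (1.83 ± 0.08, adjusted p = 1.35e-06). Fam83h, a keratin-associated scaffold, rose by 0.61 ± 0.07 (adjusted p = 0.000221) and Fbf1 by 0.30 ± 0.06 (adjusted p = 0.00917).

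Genes of epithelial junctions, polarity and surface proteases were also followed. Of 24 epithelial genes, 23 were tested, and 19 rose and 0 fell, against 13.6% and 11.7% of all genes tested. The median log2 fold change was 0.96. The membrane protease Prss8 rose by 1.81 ± 0.27 (adjusted p = 0.00144), and the tight junction claudins Cldn3 by 1.69 ± 0.16 (adjusted p = 0.000113) and Cldn6 by 1.38 ± 0.23 (adjusted p = 0.00258).

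Cdh1, E-cadherin, which is named here as the defining junction gene after its values were seen, was already at 265 CPM in WT and rose to 328.5 CPM (0.31 ± 0.05, adjusted p = 0.00306). Spint1, Tjp3, Ezr and Spint2 were not called. Epcam, a general epithelial marker also known from mESC, was listed at 0 counts in 5 libraries and at 19 in Srrm2+/- replicate 3 and was not tested. An estimated count of 0 can also be a failed estimate, so these zeros are not read as absence of the RNA.

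**Figure D4:**
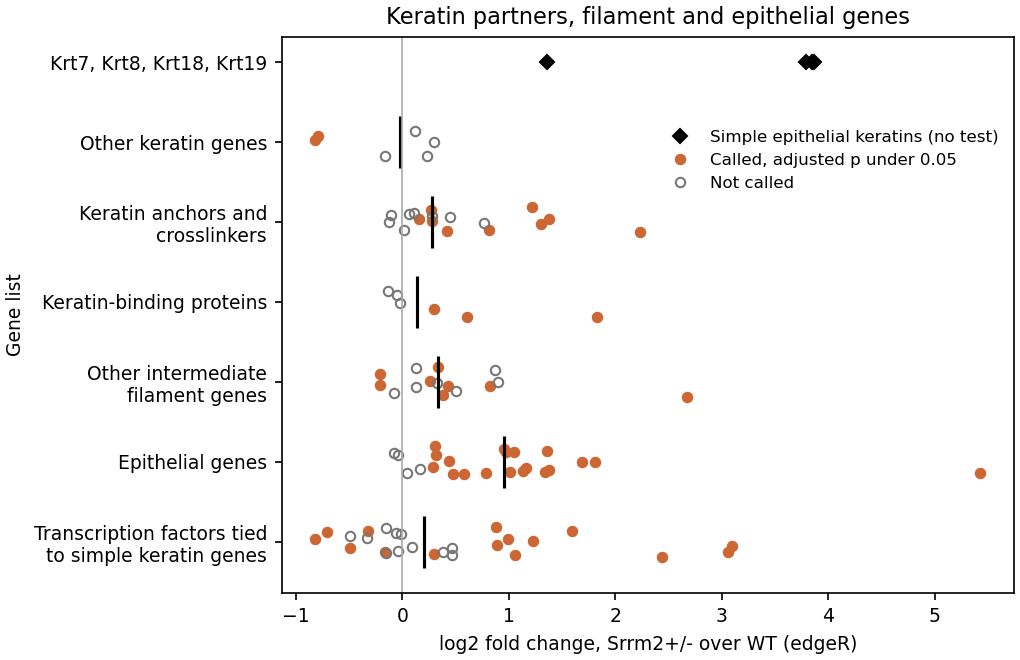
Log2 fold change (Srrm2+/- over WT, edgeR) of each tested gene in 6 gene lists, with the 4 simple epithelial keratins on top as diamonds. Filled points were called at an adjusted p under 0.05, open points were not, and vertical bars mark the list medians, which run from -0.02 for other keratin genes to 0.96 for epithelial genes.

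Transcription factors tied to simple keratin genes moved in both directions. Of 29 on the list, 26 were tested, and 10 rose and 5 fell, against 13.6% and 11.7% of all genes tested. The median log2 fold change was 0.20. Ets1 rose from 0.793, 1.18 and 1.20 to 8.83, 9.48 and 8.93 CPM (3.10 ± 0.16, adjusted p = 3.15e-06). The AP-1 genes Fosl2 (3.06 ± 0.19, adjusted p = 8.46e-06), Jun (2.44 ± 0.19, adjusted p = 3.41e-05) and Fos (1.59 ± 0.39, adjusted p = 0.0168) rose. The call of Fos was lost without WT replicate 3 (adjusted p = 0.0531) or Srrm2+/- replicate 1 (adjusted p = 0.0577). Srf, the factor of the CArG box, which is named after its values were seen, rose from 21.27 to 42.15 CPM (0.99 ± 0.06, adjusted p = 7.09e-06).

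The falls on that list included factors of trophoblast and pluripotent cells. Klf4 fell by 0.82 ± 0.08 (adjusted p = 0.000126), Tfap2c by 0.71 ± 0.05 (adjusted p = 2.11e-05) and Tead4 by 0.49 ± 0.07 (adjusted p = 0.000784). Grhl1, an epithelial Grainyhead factor, fell by 0.32 ± 0.09 (adjusted p = 0.0327), a call lost in every fit that left out a library except that without Srrm2+/- replicate 1 (adjusted p of 0.0534 to 0.107). Grhl2, another Grainyhead factor, which is named after its values were seen, rose from 26.7 to 49.5 CPM (0.89 ± 0.07, adjusted p = 4.42e-05). Klf5 (-0.15, adjusted p = 0.159) and Sp1 (-0.01, adjusted p = 0.934) were not called.

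Markers of other cell types that the cultures could hold were followed beside the keratins. Of 14 trophectoderm markers, 10 were tested, and 1 rose and 2 fell, a share near the 25.3% called over all genes tested. The median log2 fold change was 0.03. The summed level of the 14 was 108 to 113 CPM in WT and 79.5 to 82.1 CPM in Srrm2+/-. Tfap2c and Tead4, which fell, and Lgals3, which was not called, carried 104.8 to 109.9 CPM of the sum in WT and 74.6 to 77.9 CPM in Srrm2+/-. The other 11 markers summed to 3.23 to 3.44 CPM in WT and 3.83 to 4.91 CPM in Srrm2+/-. Eomes rose from 0.567 to 0.987 CPM (0.79, adjusted p = 0.0387), a call lost in 8 of 12 alternatives, among them each fit without a library other than WT replicate 2. Cdx2, the defining trophectoderm factor, had 0 counts in WT and 5, 8 and 17 in Srrm2+/-, and Tpbpa was at 0 in all libraries.

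Of 15 primitive and visceral endoderm markers, 8 were tested, with a median log2 fold change of 0.39. Dab2 rose (1.34, adjusted p = 0.0112) and Lama1 fell (-0.64, adjusted p = 0.000475), a share near the 25.3% called over all genes tested. The list's summed level was 51.0 to 62.5 CPM in WT and 36.8 to 40.9 CPM in Srrm2+/-, with Afp at 0 in all libraries. Lama1 alone was 47.9 to 59.2 CPM of the sum in WT and 32.9 to 36.9 CPM in Srrm2+/-, and the other 14 markers summed to 3.14 to 3.36 CPM in WT and 3.89 to 4.57 CPM in Srrm2+/-. Setting the genes of at least 10 CPM apart was chosen after seeing the data. Of 13 surface ectoderm and stratified epithelium markers, 5 were tested, and 2 rose and 0 fell, against 13.6% and 11.7% of all genes tested. The median log2 fold change was 0.77. The summed level of the 13 was 30.9 to 36.7 CPM in WT and 93.2 to 104.7 CPM in Srrm2+/-. The 2 that rose were Sfn and Perp, which stand on other lists here and carried most of the sum. Sfn averaged 18.87 CPM in WT and 67.29 CPM in Srrm2+/-, and Perp averaged 12.34 and 28.78 CPM. Krt5, Krt14 and Trp63 were near 0.

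Of 12 fibroblast and mesenchyme markers, 10 were tested, and 7 rose and 0 fell, against 13.6% and 11.7% of all genes tested. The median log2 fold change was 1.48, above the 0.96 of the epithelial list. The summed level of the 12 was 6.07 to 6.47 CPM in WT and 12.4 to 16.2 CPM in Srrm2+/-. The largest rises were those of Col1a2 (3.89 ± 0.32, adjusted p = 4.51e-05), Twist2 (3.39 ± 0.66, adjusted p = 0.0056), Postn (2.83 ± 0.45, adjusted p = 0.00196) and Col3a1 (2.28 ± 0.30, adjusted p = 0.000743), all under 4 CPM. The part of these cell types in the keratin levels was not tested.

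Genes around the keratins moved in both directions. Within 250 kb of the 4 genes, 79 other genes were listed and 25 tested, and 5 rose and 9 fell, with a median log2 fold change of -0.07. These 14 calls of 25 include Krt42 and Krt17, already counted among the other keratins, and Jup, already counted among the anchors and crosslinkers. Within 1000 kb 25 of 93 were called, and over all genes tested 25.3%. Eif4b, a translation factor gene 41.7 kb from Krt18, had 854 CPM in WT against 902 CPM in Srrm2+/- and was not called (0.08, adjusted p = 0.244). Near Krt18, Soat2 fell by 0.89, Csad by 0.67 and Itgb7 by 0.61, while Igfbp6 rose by 1.78 and Rarg by 0.47. The other rises were Nr4a1 near Krt7 (1.25), Jup, plakoglobin of the desmosome, near Krt19 (0.42) and Mfsd5 (0.22). The other falls were Krt42, Krt17 and Hap1 (-0.58) near Krt19, and Eif1, Grasp and Acvr1b (-0.27 to -0.26).

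Among these, the calls of Igfbp6, Grasp, Mfsd5 and Eif1 were lost in at least 1 fit that left out a library. That of Igfbp6 was lost without WT replicate 2 (adjusted p = 0.0554), WT replicate 3 (0.0552) or Srrm2+/- replicate 2 (0.0639). Grasp (0.0528 and 0.0575) and Mfsd5 (0.0571 and 0.0609) lost theirs without WT replicate 3 and without Srrm2+/- replicate 3. Eif1 lost its call without WT replicate 2, WT replicate 3, Srrm2+/- replicate 2 or Srrm2+/- replicate 3, with adjusted p of 0.0766 to 0.0887.

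**Figure D5:**
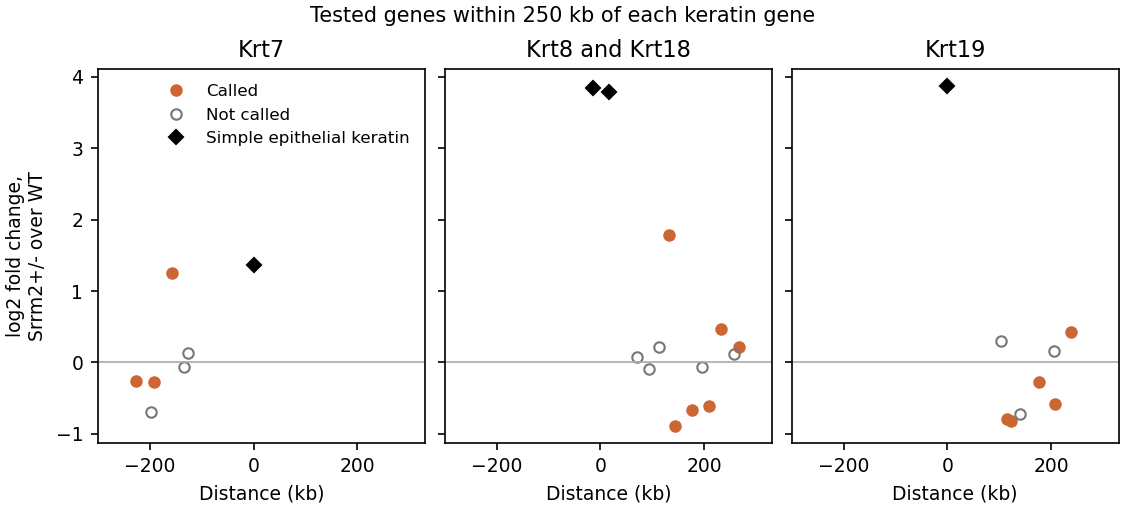
Log2 fold change (Srrm2+/- over WT) of tested genes within 250 kb of Krt7, of Krt8 and Krt18, and of Krt19, against the distance in kb of gene midpoints from the middle of the keratin gene or pair. Diamonds are the keratins, filled points were called and open points were not. The keratins were chosen with their values known, so their height beside their neighbours is not a result.

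The genes whose profile over the 6 libraries was most like the mean profile of Krt8, Krt18 and Krt19 were taken by Euclidean distance of centred log2 CPM, among the 11961 genes whose log2 CPM averaged 1 or more. Krt18, Krt8 and Krt19 lay at 0.14, 0.15 and 0.26 from it, and Krt7 at 3.05. The first 3 genes make up the mean profile and so lie near it by construction. Krt7 was left out of the profile with its values known, so these 4 distances are not a result. The 10 nearest other genes were Thbs1 and Ccn1, secreted matricellular proteins, Anxa3, Mest, Gbp2, Acta2, Myl9, Samd4, Tagln and Igf2, at distances of 0.30 to 0.83. Their log2 fold changes ran from 3.27 for Igf2 to 4.26 for Tagln. Acta2, Myl9 and Tagln encode proteins of the contractile apparatus of smooth muscle, and Mest and Igf2 are imprinted genes. This is a description of likeness, mostly of the size of the difference between the groups.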

How the data were processed

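Total RNA was sequenced from 3 WT and 3 Srrm2+/- cultures, with groups and replicate numbers taken from the sample titles. The authors deposited estimated counts per gene, not normalized, made with Kallisto 0.46.1 on GENCODE M24 transcripts (mm10, the same build as GRCm38). No source used here gives the strand setting. Because reads from shared sequence are apportioned between transcripts, pseudogenes and overlapping genes can exchange counts.

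Estimated counts were rounded to whole numbers. Symbols, lengths and positions came from GENCODE M21 (GRCm38, counted from 1), in which 42156 of 42450 identifiers matched. Library totals were 54151532 to 69933465 estimated counts. Genes past filterByExpr (minimum count 10, minimum total 15) were tested with edgeR 4.0.16 (TMM, quasi-likelihood, two-sided, genotype as the sole term) in R 4.3.3, with Benjamini-Hochberg adjustment over all 18905 genes and a threshold of 0.05. The SE is the size of the log2 fold change over the square root of F. Scripts were tested on simulated data. Sequence windows came from RefSeq GRCm38.p6.

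The 4 keratins, the gene lists and the alternatives were chosen with earlier results of these data known. The lists follow known functions. Named were Srrm2, the keratins past the filter, up to 4 called genes in each direction per list by size of log2 fold change, called genes within 250 kb, the 10 genes of nearest profile, and defining genes not called. Exceptions are stated where they occur. A gene that this rule names on the epithelial list is not reported here. Alternatives were RLE and upper quartile scaling, 2 other filters, the replicate block, each library left out, limma 3.58.1 voom, DESeq2 1.42.0, a size limit, a wider window and other lengths.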

Additional observations from a re-analysis of the deposited data

How the results depend on the processing

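Over 13 alternatives the log2 fold changes ran from 3.81 to 3.93 for Krt8, 3.74 to 3.88 for Krt18, 3.79 to 3.99 for Krt19 and 1.28 to 1.43 for Krt7. With a size limit of 1 on the log2 fold change, 1153 genes were called (813 higher, 340 lower) in place of 4781, and the lists had 0 calls for other keratins, 4 for anchors, 1 for keratin-binding proteins, 1 for other intermediate filament genes, 10 for epithelial genes, 6 for transcription factors and 2 for near genes, because fewer genes can pass. Within 1000 kb, 25 of 93 near genes were called. Without keratins that share over 10% of their words, 1 other keratin was called. The type II to type I ratio was 0.669 in WT with merged exons, and with the shortest coding transcript 1.194 in WT and 0.7318 in Srrm2+/-. Leaving out each library gave 3515 to 4122 genes called and 5 to 7 other intermediate filament genes. Krt26, not called, ran from -0.12 without Srrm2+/- replicate 1 (adjusted p = 0.896) to 0.47 without Srrm2+/- replicate 3. With the replicate number as a block 4166 genes were called. Eomes (adjusted p = 0.0809) and Eif1 (adjusted p = 0.0548) lost their calls under the block. Same-numbered libraries did not deviate together (correlations of -0.034 to -0.028), so the samples share only a number. Of the other alternative values, 172 for comparisons and 801 for single genes kept their direction and call or changed little, and 35 for single genes lost a call. The merged-exon, shortest-transcript and word-share figures rest on annotation. The shortest-transcript length, the word-share limit and a limit of 1 CPM on the epithelial list, which left 19 calls, were chosen after seeing the data. The cause of the lost calls was not tested. Groups of 3 limit the precision, and genes below the filter were not tested.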
